A study of Mus musculus with 29 samples.

Results

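The set described here is 35 genes of the red cell membrane and of heme synthesis, listed by function. The list was drawn up with earlier results of these data known, though its rule uses no group difference. Of these, 34 had a row in the deposited expression table and met the requirement of a mean value of at least 1, as did 24310 of the 50384 gene symbols in the table. Ahsp, the listed gene outside the 34, is not analysed here. Mature red cells carry little RNA, but the youngest of them, the reticulocytes, keep the messages of the last steps of erythroid differentiation. These messages encode the enzymes that make heme, the proteins that bring iron into the cell and its mitochondria, the spectrin-based skeleton beneath the red cell membrane, the blood group and transport proteins within it, and the factors that clear organelles and remodel the cell. Some of the regulators, such as Gata1, Tal1 and Nfe2, are also made by megakaryocytes, the cells that shed platelets.

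Whole blood RNA was sequenced from 29 male mice of a genotype labelled LJ, with 1 library per animal, all at day 120. The irradiated mice had received 11.35 Gy to the upper body and are divided by the outcome label into Die (n = 9) and Live (n = 10). The sham mice (n = 10), labelled sham irradiation, all carry the outcome label Live and are called sham here. The labels give no age, batch or sequencing date, and the design text of the series names blood markers of survival in delayed lung injury as the aim. Because the samples are bulk blood, fewer cells of a type and less RNA per cell cannot be told apart. The animals are separate samples in the labels, and the p-values measure the spread between them.

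The values are the authors' normalised signal per gene, called normalised counts below, and they sum to 19.6 to 55.7 M per library. Dividing each total by a frequent small value, taken as 1 read, gave an approximate depth of 19.1 to 41.2 M reads per library. Only 1.94% to 16.4% of the values per library were whole multiples of that value, so this depth is uncertain. The library kit is stranded and was used after removal of globin and ribosomal RNA. The 7S RNA genes Rn7s1 and Rn7s2 took 3.02% to 32.1% of the values in Die libraries (median 8.72%). They took 11.6% to 40.1% in Live (median 27.6%) and 2.73% to 26.3% in sham libraries (median 18.3%). The part of this 7S share in the totals and in the rescaling below was not tested. In 3 libraries, Die replicates 2 and 14 and sham replicate 1, 506 to 828 genes had a value of 0 among the 11519 whose mean reached 50, and every other library had at most 220 such genes. No member of the erythroid list was at 0 in any library. The other cell types of whole blood were present: all 10 neutrophil, 10 monocyte, 10 B cell, 12 T and NK cell and 12 platelet markers had a mean of at least 1, and no library had more than 3 of the genes of any of these lists at 0.

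Sequences are shown for the genes of iron and heme that share a known regulatory hairpin and for promoters of members followed below. Iron-responsive elements are short hairpins in messenger RNA that bind iron regulatory proteins when iron is scarce, which blocks translation when the hairpin lies before the coding region and protects the message when it lies after. A pattern of an unpaired C, a stem of 5 pairs (G-T pairs allowed) and a loop of 6 bases, CAGTGN, was searched in the GENCODE M21 transcripts of all 34 members. It occurred in an untranslated region of 2 of them, Alas2 and Tfrc. Each site is given below with the loop in capitals, on the transcript strand of GRCm38.
Alas2, 5′ untranslated region, chrX:150547461-150547483, plus strand: gttcgtcctCAGTGCagggcaac
Tfrc, 3′ untranslated region, chr16:32631222-32631244, plus strand: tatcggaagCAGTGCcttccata
Tfrc, 3′ untranslated region, chr16:32631601-32631623, plus strand: tatcgggagCAGTGTcttccata
Tfrc, 3′ untranslated region, chr16:32631666-32631688, plus strand: tatcggagaCAGTGAtctccata
Tfrc, 3′ untranslated region, chr16:32631713-32631735, plus strand: tatcgggaaCAGTGTttcccata
The 4 Tfrc sites all stood after the stop codon, and the Alas2 site stood before the start codon. These are the gene for heme synthesis at its first step and the gene for iron uptake, whose values are given below.

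Promoters of erythroid genes commonly hold sites for Gata1, whose core motif is AGATAA or TGATAA. RefSeq promoter windows of 300 bases (250 before a transcript start and 50 after it, GRCm38.p6) were at hand for 25 members, with 33 windows in all. AGATAA or TGATAA, on either strand, occurred in 12 of the 33 windows (36.4%), 1 in each of 12 members, against 18.6% of all 32817 windows of the same length. The motif of Klf1-type factors, CCACACCC on either strand, occurred in 0 of the 33 windows and in 3.56% of all windows. AGATAA or TGATAA also occurred in a window of Cpox, Epb42, Hemgn, Kel, Klf1, Trim10 and Uros, whose promoters are not printed. The matched members whose values per group are given below were Alas2, the surface protein genes Ermap, Rhag and Rhd, and Tal1. A match was therefore part of their choice. The 150 bases before the most upstream annotated start in a window are printed for each, in 2 windows for Tal1, with any match in capitals.
Alas2, chrX:150547225-150547374, plus strand: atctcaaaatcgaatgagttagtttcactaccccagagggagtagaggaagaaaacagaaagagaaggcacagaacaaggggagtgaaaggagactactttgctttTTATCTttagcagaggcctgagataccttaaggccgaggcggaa
Ermap, chr4:119190012-119190161, minus strand: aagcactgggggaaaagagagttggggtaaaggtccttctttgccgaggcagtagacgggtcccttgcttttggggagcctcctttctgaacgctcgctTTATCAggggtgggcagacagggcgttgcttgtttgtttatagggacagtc
Rhag, chr17:40810976-40811125, plus strand: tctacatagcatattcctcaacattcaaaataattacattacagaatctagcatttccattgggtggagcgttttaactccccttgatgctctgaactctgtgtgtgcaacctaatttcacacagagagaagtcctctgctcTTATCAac
Rhd, chr4:134864386-134864535, plus strand: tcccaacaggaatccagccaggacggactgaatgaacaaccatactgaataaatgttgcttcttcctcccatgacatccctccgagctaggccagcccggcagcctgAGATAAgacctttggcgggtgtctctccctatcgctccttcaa
Tal1, chr4:115056276-115056425, plus strand: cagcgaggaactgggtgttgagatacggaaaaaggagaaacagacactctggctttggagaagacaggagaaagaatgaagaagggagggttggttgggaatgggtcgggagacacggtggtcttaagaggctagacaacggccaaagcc
Tal1, chr4:115057661-115057810, plus strand: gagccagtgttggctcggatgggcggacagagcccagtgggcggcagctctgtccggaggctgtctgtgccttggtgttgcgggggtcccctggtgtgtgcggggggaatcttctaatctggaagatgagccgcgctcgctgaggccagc
The match began 44 bases before the start in Alas2, 51 in Ermap, 8 in Rhag and 43 in Rhd. Neither Tal1 stretch holds one, and the match counted for Tal1 lies in its windows outside these bases. In Alas2, Ermap and Rhag it lies on the opposite strand, so that it reads TTATCT or TTATCA here. These matches are letters in a window and were not tested as binding sites.

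Across the 4 comparisons the 34 erythroid genes were not separated from the spread between animals. With limma on log2(value + 0.5), a fit over all 24310 genes with Benjamini-Hochberg adjustment, 0 of the 34 had an adjusted p under 0.05 in Die minus sham, where 0% of all genes passed. The count was also 0 of 34 in Live minus sham (0.0411% of all genes passed), in the mean of both irradiated groups minus sham (0.0165%), and in Die minus Live (0%). At an unadjusted p under 0.05, 7 members were higher in Live than in sham animals, where 3.76% of all genes were higher at that level. They were Tfrc, Ermap, Rhag, Rhd, Gata1, Tal1 and Xpo7. In Die minus Live 3 members were lower at that level, Tspan33, Gata1 and Tal1, against 5.32% of all genes. In irradiated minus sham 3 were higher, Tfrc, Rhag and Xpo7, against 3.45% of all genes, and in Die minus sham 0 passed, where 8.67% of all genes did. When limma weighted each library by its own noise (array weights), 3 members passed the adjusted threshold in Live minus sham, Tal1, Tfrc and Rhag, and 2.95% of all genes passed as well. In irradiated minus sham 1 member, Tfrc, passed with these weights, where 1.98% of all genes did.

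The typical member differed little between groups. The median log2 change over the 34 members was -0.10 in Die minus sham, with 14 members above 0 and 20 below, beside a median of 0.015 over all genes tested. It was 0.19 in Live minus sham, with 22 above 0 and 12 below, beside 0.0054 over all genes. In Die minus Live the median was -0.26, with 6 above 0 and 28 below, beside 0.0017 over all genes. The Die and Live comparisons share the sham animals, and the Live animals stand in the last comparison as well, so these counts are not independent of each other. When every library was rescaled to the same total, the median over all genes moved to -0.28 in Live minus sham and 0.29 in Die minus Live, and the members' medians to -0.17 and 0.08. Relative to all genes the members then stood at 0.11 in Live minus sham and -0.21 in Die minus Live. The 95% interval of the change lay within 1 log2 unit of 0 for 28 of the 34 members in Die minus sham, 21 in Live minus sham and 21 in Die minus Live. Among all 24310 genes, many of them with low values, this held for 6810, 7044 and 6844 in the same comparisons.

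**Figure D1:**
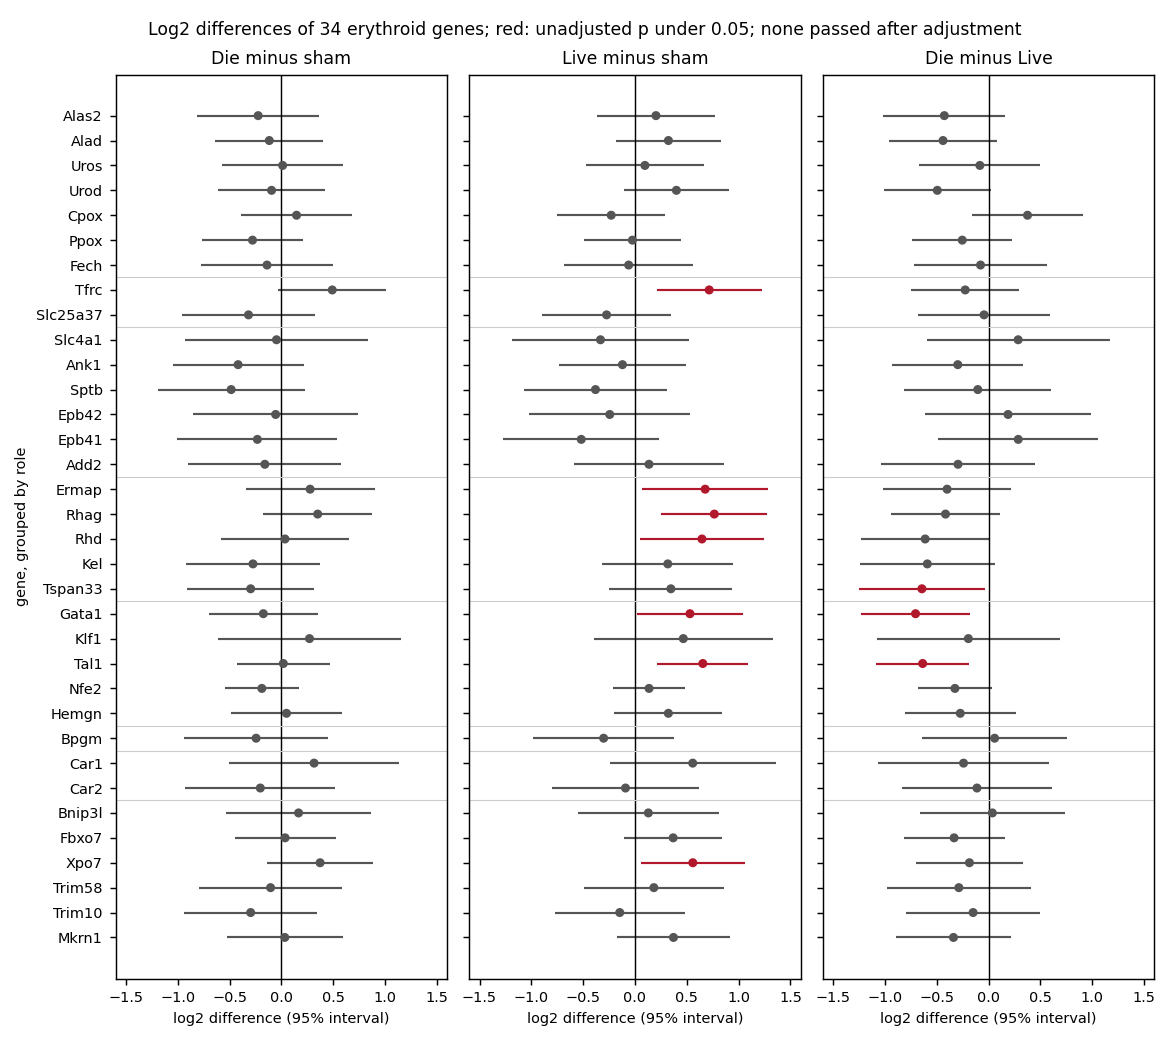
Log2 difference (x axis, with 95% interval) of each of the 34 erythroid genes (rows, grouped by role) in Die minus sham, Live minus sham and Die minus Live, from limma over 9 Die, 10 Live and 10 sham animals. Red marks an unadjusted p under 0.05, which 0, 7 and 3 members had, and none passed after adjustment over all genes.

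Alas2, the erythroid first enzyme of heme synthesis and its rate-limiting step, had the highest level of the list, with a mean of 384681 normalised counts per kb of its longest coding transcript over the 29 animals. Alas2 values lay between 343716 and 1427635 normalised counts in Die animals (median 555587), between 525217 and 1954649 in Live animals (median 720356) and between 463336 and 1743807 in sham animals (median 659117). The 3 groups overlapped over most of their range, and 3 of 9 Die and 6 of 10 Live animals were above the sham median. The log2 change was -0.22 ± 0.29 (SE) in Die minus sham (adjusted p = 0.842) and 0.20 ± 0.28 in Live minus sham (adjusted p = 0.936). The opposite strand of Alas2 exons holds Apex2 and Mir3620, and the sources used here do not say whether counting used the strand. The sign of the Alas2 change turned with the scaling. It was 0.36 in Die minus sham with quantile normalization, and in Live minus sham -0.31 with quantile normalization and -0.16 with the same total in every library. With the same total the median of all genes was -0.28 in Live minus sham, and Alas2 stayed above it.

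The other 6 enzymes of heme synthesis act in turn on the product of Alas2. Fech, which inserts iron into the finished ring, was the next most abundant of them, at 26365 normalised counts per kb. Urod, Alad, Ppox, Cpox and Uros had 115 to 1539 normalised counts per kb. Over the 7 enzymes the log2 change in Die minus sham was below 0 for 5, with a median of -0.12, and in Live minus sham above 0 for 4, with a median of 0.10. The Live minus sham median turned to -0.03 with quantile normalization and -0.26 with the same total in every library. With the same total the median of all genes was -0.28, and 4 of 7 enzymes were above it. In Die minus Live 6 of 7 were below 0, from -0.08 (Fech and Uros) to -0.49 ± 0.25 (SE, Urod), and Cpox stood at 0.38. With the same total in every library 3 of 7 were below 0 in Die minus Live, with a median of 0.09, and 6 of 7 were below the median of all genes.

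Iron import was represented by Tfrc, the transferrin receptor through which erythroid cells take up iron, and Slc25a37 (mitoferrin), which passes iron into mitochondria. Tfrc values lay between 4401 and 12893 normalised counts in Die animals (median 5994), between 2998 and 11513 in Live animals (median 9598) and between 2572 and 10773 in sham animals (median 4666). In both irradiated groups 8 animals exceeded the sham median, 8 of 9 in Die and 8 of 10 in Live, while the ranges overlapped. The log2 change of Tfrc was 0.49 ± 0.26 (SE) in Die minus sham (adjusted p = 0.598) and 0.72 ± 0.25 in Live minus sham (adjusted p = 0.362). For both irradiated groups together it was 0.60 ± 0.22 (adjusted p = 0.461). Slc25a37 stood on the other side of 0, at -0.32 ± 0.31 (SE) in Die minus sham and -0.27 ± 0.31 in Live minus sham.

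The membrane skeleton genes encode band 3 (Slc4a1), the anion exchanger that anchors the skeleton, with ankyrin (Ank1), beta-spectrin (Sptb), protein 4.2 (Epb42), protein 4.1 (Epb41) and beta-adducin (Add2). Slc4a1 values lay between 10211 and 151321 normalised counts in Die animals (median 25148), between 7452 and 83666 in Live animals (median 22915) and between 14239 and 86581 in sham animals (median 25603). The groups overlapped throughout, and Slc4a1 was the most variable member, with a within-group SD of 1.06 log2 units. Its log2 change was -0.05 ± 0.43 (SE) in Die minus sham (adjusted p = 0.986) and -0.33 ± 0.42 in Live minus sham (adjusted p = 0.928). All 6 genes of this group had a log2 change below 0 in Die minus sham, from -0.05 to -0.48 (Sptb), and 5 of 6 in Live minus sham, down to -0.52 ± 0.37 (SE, Epb41, adjusted p = 0.83). The median over the 6 was -0.20 in Die minus sham and -0.29 in Live minus sham, and both medians stayed below 0 with quantile normalization and with the same total in every library.

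The surface proteins had the highest medians of any role with more than 2 genes in Live minus sham. Rhag, the Rh-associated glycoprotein that carries the Rh complex to the membrane and conducts ammonia, lay between 565 and 1984 normalised counts in Die animals (median 897), between 615 and 2497 in Live animals (median 1567) and between 553 and 1950 in sham animals (median 727). Above the sham median stood 7 of 9 Die and 9 of 10 Live animals, and 1 Live animal exceeded the highest sham animal. The log2 change of Rhag was 0.35 ± 0.26 (SE) in Die minus sham (adjusted p = 0.721) and 0.77 ± 0.25 in Live minus sham (adjusted p = 0.306).

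Rhd, the Rh protein itself, had 109 to 568.4 normalised counts in Die animals (median 284), 187 to 980 in Live animals (median 391) and 142 to 437 in sham animals (median 238). Here 3 Live animals exceeded the highest sham animal, and 4 Die animals lay below the lowest Live animal. The Rhd log2 change was 0.03 ± 0.30 (SE) in Die minus sham (adjusted p = 0.985), 0.65 ± 0.30 in Live minus sham (adjusted p = 0.593) and -0.61 ± 0.30 in Die minus Live (adjusted p = 0.485).

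Ermap, which carries the Scianna blood group in humans, had 281 to 782 normalised counts in Die animals (median 547), 333 to 1518 in Live animals (median 661) and 128 to 1032 in sham animals (median 437). Its lowest value was in sham replicate 1, which is among the 3 sparse libraries. The Ermap log2 change in Live minus sham was 0.68 ± 0.30 (SE, adjusted p = 0.573), and 0.49 without the 3 sparse libraries. Tspan33, a tetraspanin of erythroid progenitors, had 988 to 7848 normalised counts in Die animals (median 2931), 2494 to 13295 in Live animals (median 4247) and 2280 to 9269 in sham animals (median 3829). Its lowest value was in Die replicate 14, likewise a sparse library, and its log2 change in Die minus Live was -0.64 ± 0.30 (SE, adjusted p = 0.459), or -0.51 without the 3 sparse libraries. Kel, the Kell blood group peptidase, stood at 0.32 in Live minus sham and -0.59 in Die minus Live. All 5 surface protein genes were above 0 in Live minus sham (median 0.65) and below 0 in Die minus Live (median -0.59). With the same total in every library 3 of 5 were above 0 in Live minus sham, and 5 of 5 were above the median of all genes.

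**Figure D2:**
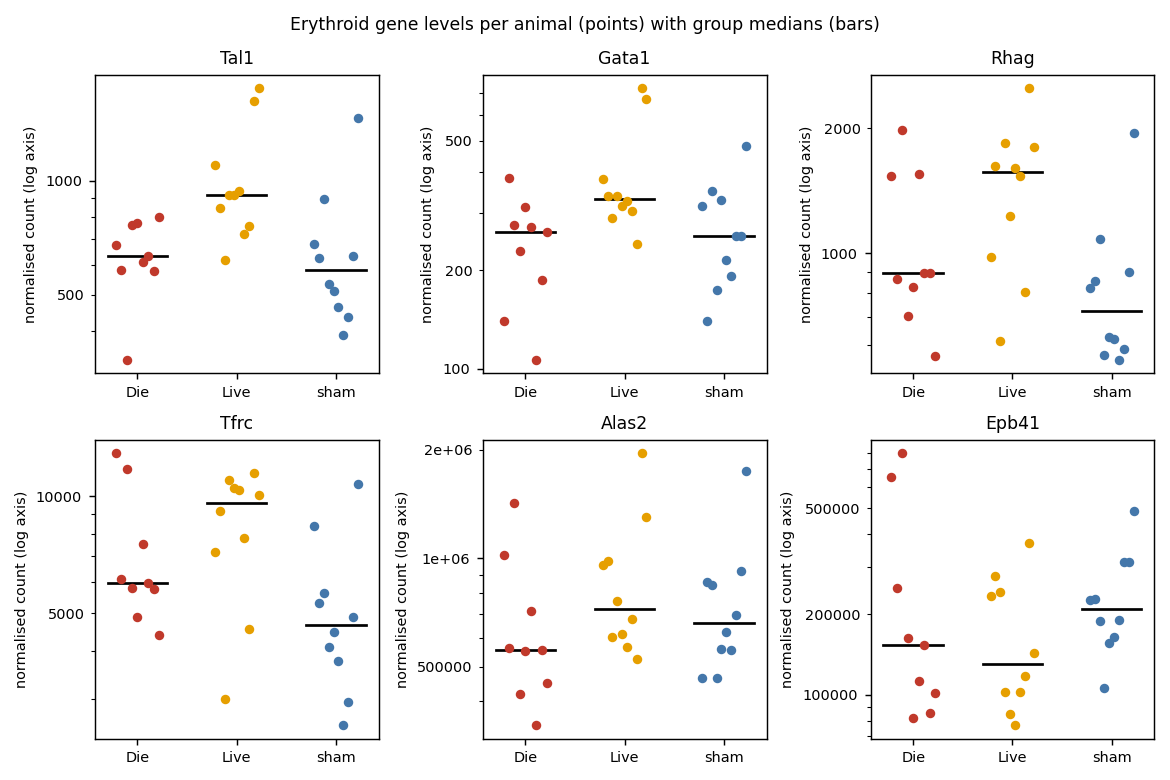
Normalised counts (y axis, log scale) of Tal1, Gata1, Rhag, Tfrc, Alas2 and Epb41 in each animal (points) of the Die (n = 9), Live (n = 10) and sham (n = 10) groups, with the group median as a bar. The groups overlap for every gene, and the Live median of Tal1, 918, lies above all 9 Die animals.

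The transcriptional regulators Gata1, Tal1 and Klf1 drive the erythroid programme, Nfe2 acts on globin genes and in platelet formation, and Hemgn is a nuclear protein of blood progenitors. Tal1 values lay between 336 and 802 normalised counts in Die animals (median 632), between 616 and 1753 in Live animals (median 918) and between 391 and 1467 in sham animals (median 580.4). All 10 Live animals and 7 of 9 Die animals were above the sham median, and 7 Live animals were above the highest Die animal. The log2 change of Tal1 was 0.02 ± 0.22 (SE) in Die minus sham (adjusted p = 0.991), 0.65 ± 0.22 in Live minus sham (adjusted p = 0.314) and -0.64 ± 0.22 in Die minus Live (adjusted p = 0.371).

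Gata1 had 106 to 385 normalised counts in Die animals (median 263), 240.2 to 724 in Live animals (median 332) and 140.1 to 482 in sham animals (median 255). Of the Die animals 8 of 9 lay below the Live median, and 5 of 9 lay above the sham median. The Gata1 log2 change was -0.17 ± 0.26 (SE) in Die minus sham (adjusted p = 0.867), 0.53 ± 0.25 in Live minus sham (adjusted p = 0.621) and -0.70 ± 0.26 in Die minus Live (adjusted p = 0.383). Without the 3 sparse libraries, among them Die replicates 14 and 2 with the 2 lowest Gata1 values of the Die group, the Die minus Live change was -0.45 and the Die minus sham change turned to 0.11, and with array weights Die minus sham was 0.091. All 5 regulators were above 0 in Live minus sham (median 0.47) and below 0 in Die minus Live (median -0.32). With the same total in every library 3 of 5 were above 0 in Live minus sham (median 0.11) and 3 of 5 in Die minus Live (median 0.02), while 5 of 5 stayed above the median of all genes in Live minus sham and 5 of 5 below it in Die minus Live. Klf1 was the least abundant member, with 41.0 normalised counts per kb, and stood at 0.47 ± 0.42 (SE) in Live minus sham.

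Bpgm makes 2,3-bisphosphoglycerate, which lowers the affinity of hemoglobin for oxygen, and had the second highest level per length, 96242 normalised counts per kb. Bpgm values lay between 76458 and 547036 normalised counts in Die animals (median 144025), between 70754 and 449792 in Live animals (median 154826) and between 113960.0 and 467920 in sham animals (median 191800.0). The groups overlapped throughout, and the log2 change was -0.24 ± 0.34 (SE) in Die minus sham (adjusted p = 0.856) and -0.30 ± 0.33 in Live minus sham (adjusted p = 0.909).

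Car1 and Car2 encode carbonic anhydrases, which interconvert carbon dioxide and bicarbonate. Car1, at 108 normalised counts per kb, had 35.6 to 347 normalised counts in Die animals (median 98.3), 53.5 to 268 in Live animals (median 139) and 38.3 to 295 in sham animals (median 76.7). Of the animals 6 of 9 Die and 8 of 10 Live stood above the sham median, with a log2 change of 0.32 ± 0.40 (SE) in Die minus sham (adjusted p = 0.841) and 0.56 ± 0.39 in Live minus sham (adjusted p = 0.83). Car2, at 20201 normalised counts per kb, had log2 changes of -0.20 and -0.09 in the same comparisons.

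The remodelling and clearance genes serve the loss of organelles and proteins at the end of erythroid maturation. Bnip3l (Nix), which marks mitochondria for removal, lay between 73629 and 582705 normalised counts in Die animals (median 207906), between 105734 and 419842 in Live animals (median 188515) and between 91965 and 420592 in sham animals (median 163728). Its groups overlapped almost fully, and the log2 change was 0.17 ± 0.34 (SE) in Die minus sham (adjusted p = 0.913) and 0.13 ± 0.33 in Live minus sham (adjusted p = 0.978). Xpo7, a nuclear export receptor needed for the condensation of the erythroblast nucleus, lay between 4616 and 22458 normalised counts in Die animals (median 8548), between 5213 and 17078 in Live animals (median 9787) and between 4633 and 14089.9 in sham animals (median 6361).

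Above the sham median of Xpo7 stood 7 of 9 Die and 9 of 10 Live animals. The Xpo7 log2 change was 0.37 ± 0.25 (SE) in Die minus sham (adjusted p = 0.694), 0.56 ± 0.25 in Live minus sham (adjusted p = 0.578) and 0.47 ± 0.22 in irradiated minus sham (adjusted p = 0.642). Xpo7 shares exon sequence on the same strand with Npm2, so reads there could belong to either gene. The ubiquitin ligase genes Trim58, Trim10 and Mkrn1 and the ligase subunit gene Fbxo7 had log2 changes between -0.30 (Trim10) and 0.04 in Die minus sham and between -0.15 (Trim10) and 0.37 in Live minus sham.

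The mean of the 34 members' log2 values, taken as a deviation from each gene's mean over all animals, lay between -0.80 and 1.14 in Die animals, between -0.51 and 1.31 in Live animals and between -0.66 and 1.04 in sham animals. The 4 highest libraries came from all groups: Live replicate 18, Die replicate 4, sham replicate 10 and Die replicate 2. Not every member was high in them: Tal1 had its lowest value of all 29 animals, 336, in Die replicate 4, and Gata1 had 140.2 in Die replicate 2. Live replicate 18 also had the highest total of normalised counts, 55.7 M, and Die replicate 4 had 33.2 M and sham replicate 10 had 39.3 M. The 7S share was 40.1% in Live replicate 18, 8.72% in Die replicate 4 and 19.9% in sham replicate 10. The part of these totals and of the 7S share in the erythroid values was not tested. The members together took 4.36% to 14.4% of the values in Die, 3.67% to 10.1% in Live and 5.04% to 10.6% in sham libraries. The median within-group SD was 0.71 log2 units over the members, from 0.36 (Nfe2) to 1.06 (Slc4a1), beside 0.61 over all 11519 genes whose mean reached 50.

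**Figure D3:**
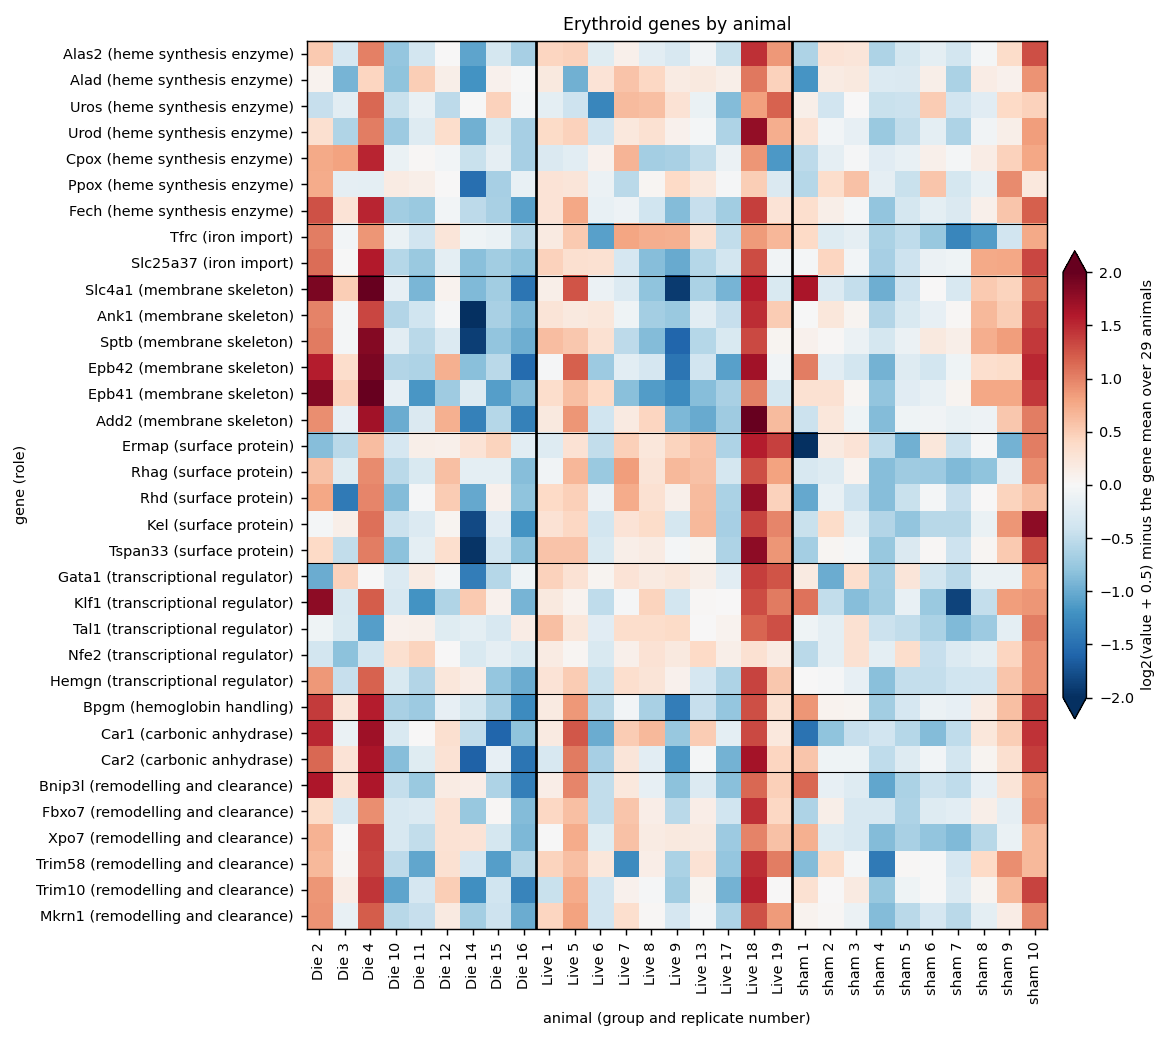
Deviation of log2(value + 0.5) from the gene's mean over 29 animals (color, from -2 to 2) for each of the 34 erythroid genes (rows, by role) in each animal (columns, Die, Live and sham by replicate number). Die replicates 2 and 4, Live replicate 18 and sham replicate 10 are high for most rows, and Die replicates 14 and 16 and sham replicate 4 are low.

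The members varied together over the 29 animals. Of the 561 pairs, 537 had a Spearman's rho above 0, with a median of 0.55, and the median was 0.57 after the group means were removed. In 376 pairs both Pearson's r and Spearman's rho were positive with a permutation p (100000 draws, two-sided) under 0.05 after adjustment over the 561 pairs, and in 0 pairs both were negative. Among all 66337921 pairs of the 11519 genes whose mean reached 50, 5.38% reached the smallest r and rho of these 376 pairs, and the median rho was 0. The median r was 0.60, and 0.53 without the 2 libraries farthest from the median of the gene on the x axis. Because the members of a pair are measured in the same libraries and share their scaling, the correlations describe these libraries. Against markers of other blood cells the members had a median rho of 0.09 (platelet), 0.03 (T and NK cell), -0.12 (B cell), -0.16 (neutrophil) and -0.24 (monocyte).

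The closeness differed by role. The 15 pairs of membrane skeleton genes had a median rho of 0.82, the 10 pairs of surface protein genes 0.77 and the 15 pairs of remodelling genes 0.68. The 21 pairs of heme enzymes had a median of 0.36 and the 10 pairs of regulators 0.39. After the group means were removed the medians were 0.83 for skeleton, 0.68 for surface protein and 0.75 for remodelling genes. They were then 0.39 for heme enzymes and 0.34 for regulators, so the order of the roles partly changed. The closest pair was Fech and Bpgm, with r = 0.97 and rho = 0.98 (permutation p = 1e-05 for each, the smallest the draws can give, adjusted p = 3.42e-05 and 4.32e-05), and r = 0.97 without the 2 farthest libraries. Alas2 was closest to Tspan33, with r = 0.95 and rho = 0.96, and Slc25a37 to Sptb, with r = 0.94 and rho = 0.96, each at the same smallest p. Tfrc was closest to Rhag, with r = 0.90 and rho = 0.90, and far less close to the other iron importer, Slc25a37, with r = 0.26 and rho = 0.22 (permutation p = 0.176 and 0.243, adjusted p = 0.205 and 0.287). Tal1 was closest to Gata1, with r = 0.66 and rho = 0.63 (permutation p = 5e-05 and 0.00029, adjusted p = 0.000134 and 0.00073), and r = 0.64 without the 2 farthest libraries. Nfe2 stood most apart from the list, with a median rho of 0.12 to the other members.

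**Figure D4:**
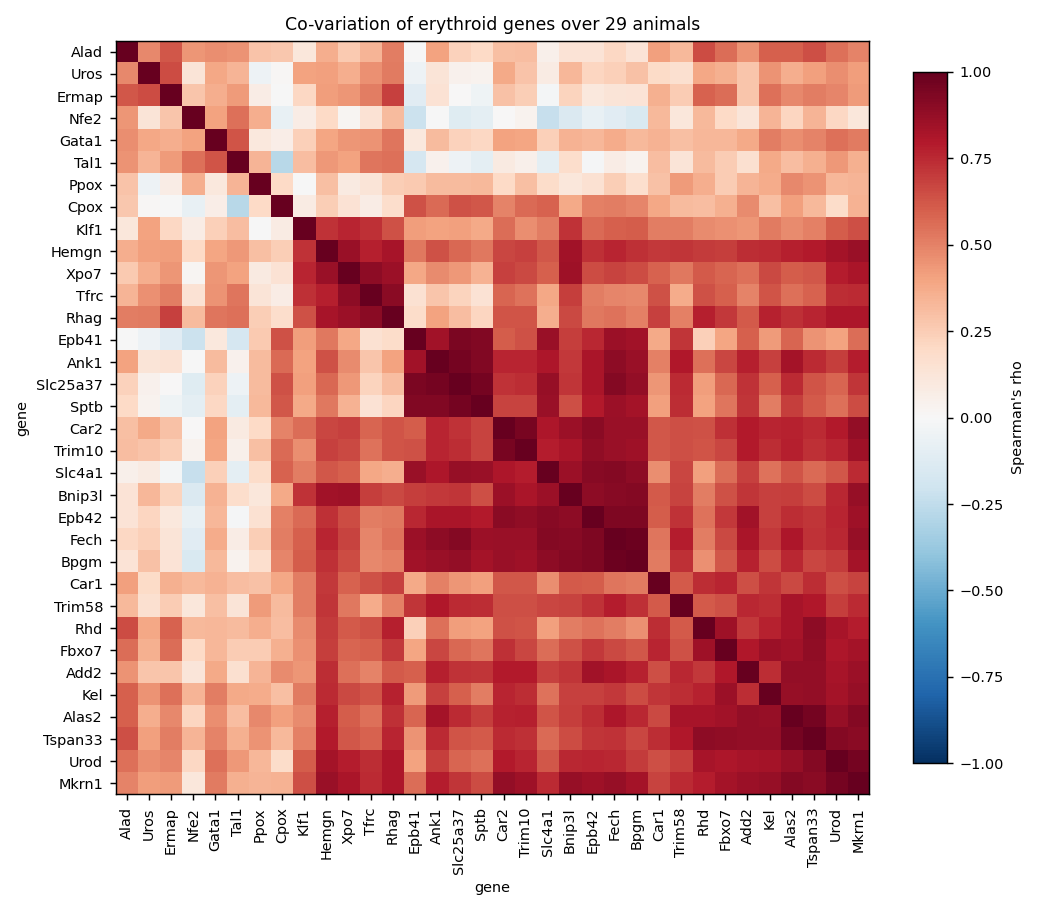
Spearman's rho (color, from -1 to 1) for every pair of the 34 erythroid genes over 29 animals, with genes on both axes ordered by hierarchical clustering. The membrane skeleton genes other than Add2 stand together with Slc25a37, Fech and Bpgm. Add2 is closest to Alas2 (rho = 0.88). Nfe2, Ppox, Ermap, Tal1, Cpox, Uros, Alad and Gata1 are paler against most others.

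The erythroid genes were set beside other RNA of red cells and platelets in the same libraries. Adult globin messages, which the library preparation removes in part, summed to 410083 to 1693401 normalised counts in Die animals, 598919 to 3477995 in Live animals and 420890 to 2735350 in sham animals. The globin genes Hba-a1, Hba-a2, Hbb-bs and Hbb-bt had a median log2 change of 0.02 in Die minus sham, 0.53 in Live minus sham and -0.53 in Die minus Live, with 4 of 4 below 0 in the last, and 0 of 4 passed the adjusted threshold in any of these. Over the 29 animals 18 of the 34 members correlated positively with the summed globin values in both r and rho, after adjustment over the 68 relations to globin and platelet sums, and 0 correlated negatively. Of the 11515 genes whose mean reached 50, the globin genes left out, 4.86% reached the smallest r and rho of these 18. The median r of the members was 0.53, beside 0.03 over those genes, and 0.42 without the 2 libraries farthest in globin, Die replicate 14 and Live replicate 18. Tspan33 had the highest, r = 0.79 and rho = 0.72 (permutation p = 1e-05 and 2e-05, adjusted p = 0.000136 and 0.000453), and r = 0.69 without these 2 libraries. Alas2 had r = 0.77 and rho = 0.68 (permutation p = 1e-05 and 7e-05, adjusted p = 0.000136 and 0.00119), and r = 0.68 without them. The abundant skeleton genes Epb41 and Slc4a1 had the lowest, r = 0.15 and rho = 0.12 for Epb41 (permutation p = 0.431 and 0.534, adjusted p = 0.532 and 0.699) and r = 0.19 and rho = 0.18 for Slc4a1 (permutation p = 0.311 and 0.335, adjusted p = 0.414 and 0.518).

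Platelet markers summed to 64509 to 128934 normalised counts in Die animals, 84889 to 166458 in Live animals and 64879 to 201906 in sham animals, with 0 of the 12 markers at 0 in any library. Their median log2 change was -0.16 in Die minus sham, 0.35 in Live minus sham and -0.33 in Die minus Live, where 12 of 12 were below 0. None of the 12 passed the adjusted threshold of limma. At an unadjusted p under 0.05, 5 were higher in Live minus sham, against 3.76% of all genes. In Die minus Live 4 were lower at that level, against 5.32% of all genes. In Die minus sham 1 was higher and 0 were lower, where 8.67% of all genes passed in either direction. Pf4, the platelet chemokine, stood at 0.83 ± 0.23 (SE) in Live minus sham (adjusted p = 0.201). Of the 34 members 2 correlated with the platelet sum in both r and rho after adjustment. Of the 11507 genes whose mean reached 50, the platelet markers left out, 2.18% reached the smaller r and rho of these 2. Tal1 had r = 0.84 and rho = 0.77 (permutation p = 1e-05 and 2e-05, adjusted p = 0.000136 and 0.000453), and r = 0.78 without the 2 farthest libraries, Live replicate 18 and sham replicate 10. Gata1 had r = 0.56 and rho = 0.54 (permutation p = 0.00163 and 0.00312, adjusted p = 0.00792 and 0.0163), and r = 0.41 without them. Nfe2 and Tfrc passed in r alone, with r = 0.50 and 0.44 (permutation test, adjusted p = 0.0167 and 0.0429). Their rho was 0.37 and 0.36 (adjusted p = 0.127 and 0.132), and their r 0.33 and 0.32 without the same 2 libraries. The median r over the 34 members was 0.21, and -0.06 without these 2 libraries. With the platelet level as a covariate, an alternative chosen after seeing the data, the Tal1 change was 0.33 in Live minus sham and -0.24 in Die minus Live, and the Gata1 change 0.30 and -0.43.

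**Figure D5:**
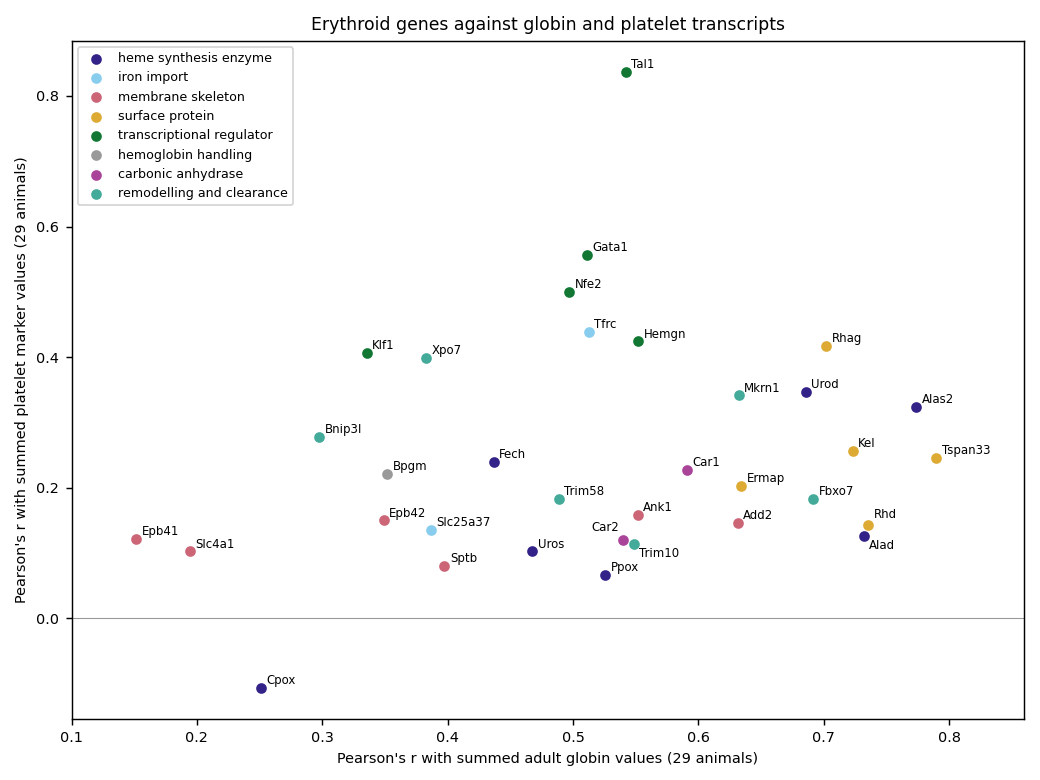
Pearson's r over 29 animals of each of the 34 erythroid genes with the summed adult globin values (x axis) and with the summed platelet marker values (y axis), colored by role. Tspan33 and Alas2 lie farthest right, at 0.79 and 0.77, and Tal1 lies highest, at 0.84, followed by Gata1 at 0.56.

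The wider erythroid pathway, taken from lists of other genes of the same functions, likewise gave 0 genes past the adjusted threshold of limma in any of the 4 comparisons. Among 30 other heme and iron genes the median log2 change was -0.29 in Die minus sham, with 8 above 0 and 22 below, and 0.10 in Live minus sham, with 17 above 0 and 13 below. In Die minus Live it was -0.37, with 9 above 0 and 21 below, and 7 of the 30 were lower at an unadjusted p under 0.05, against 5.32% of all genes. In this list the porphyrin transporter Abcb6 stood at 0.92 ± 0.26 (SE) in Live minus sham (adjusted p = 0.201), and Abcb10, a mitochondrial transporter, at 0.79 ± 0.23 (adjusted p = 0.216). Among 27 other red cell membrane genes 19 were above 0 in Live minus sham, with a median of 0.26, and 20 were below 0 in Die minus Live, with a median of -0.26. They include Dmtn (dematin), an actin bundling protein of the skeleton, at 0.70 ± 0.24 (SE) in Live minus sham (adjusted p = 0.336), and Add3 (gamma-adducin) at -0.42 ± 0.11 (adjusted p = 0.142). Unadjusted p under 0.05 in Live minus sham was reached by 4 higher and 3 lower of the heme and iron genes and by 5 higher and 2 lower of the membrane genes, beside 3.76% and 3.93% of all genes.

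The 22 other erythroid regulators had medians of -0.03 in Die minus sham and 0.05 in Live minus sham, and the 22 other maturation and clearance genes -0.16 and 0.08. The 14 red cell metabolic and antioxidant genes had medians of 0.08 and 0.17, with Gclc, the catalytic subunit of the first enzyme of glutathione synthesis, at 0.71 ± 0.20 (SE) in Live minus sham (adjusted p = 0.208). Over the 10 erythroid progenitor and proliferation genes the medians were 0.11 and 0.48. Pairs of an erythroid member and a gene of these lists had a median rho between 0.17 (regulators) and 0.56 (maturation and clearance) over the 29 animals, beside 0.55 within the list.

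The leukocyte markers give the setting of these values. Of the 10 monocyte markers, 3 passed the adjusted threshold as lower in Live than in sham animals, Cx3cr1, Ccr2 and F13a1. In that comparison 0.0411% of all genes passed, and all 10 markers were below 0 with a median log2 change of -1.14. In Die minus sham the monocyte median was -0.69 with 10 of 10 below 0, and 0 passed, where 0% of all genes did. Summed monocyte marker values lay between 52888 and 133670.0 normalised counts in Die animals, between 54800 and 138217 in Live animals and between 81847 and 233705 in sham animals. The medians of the neutrophil, B cell and T and NK cell lists in Live minus sham were 0.11, 0.18 and 0.08. The part of the leukocyte values in the erythroid values was not tested.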

How the data were processed

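The deposited table gives 1 value per gene symbol and library, a normalised signal that the authors had scaled before deposit. GRCm38 is the build in the submitters' processing notes, and the tools listed there, with neither role nor order, are kallisto 0.44.0, sleuth, DESeq2 and bcl2fastq 2.19. The annotation is not given in the sources used here. Between 1.94% and 16.4% of the values per library came out as whole reads (within 0.01), so read counts were not recovered and a test for normalised values was used. The intervals and tests therefore take no account of the depth behind a value. Groups come from the treatment and outcome labels.

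All genes with a mean of at least 1 were fitted together with limma 3.58.1 (trend) in R 4.3.3 on log2(value + 0.5), with 3 group means, 4 contrasts, two-sided tests and Benjamini-Hochberg adjustment at 0.05. The pseudocount understates the change of low genes. SE is the standard error from limma. The fit and the permutation code were tested on simulated data. Correlations, permutations (100000 draws), sequence searches and figures used Python 3.11.15 with numpy 2.4.6, pandas 2.3.3, scipy 1.17.1 and matplotlib 3.10.9. Coordinates and transcript lengths are those of GENCODE M21, which holds 49678 of the symbols. Exons of 10 members overlap a gene on the opposite strand, and whether counting used the strand is not given.

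The members, lists and tests were chosen with earlier results of these data known. Values per group are printed for members past the threshold or with an unadjusted p under 0.05 in any contrast and for the first member of each role, and up to 4 members of each other list may be named by smallest p. Alternatives were other pseudocounts, filters, scalings, weights and covariates, the replicate number as a block, and leaving out libraries. The result of 1 gene of these lists is not reported here.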

Additional observations from a re-analysis of the deposited data

Results flagged for a closer look

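Values were checked for outliers on the log2 scale. Of 102 groups of 9 or 10 animals (34 genes in 3 groups), 6 held 1 animal whose value stood apart from the nearest other by more than Dixon's 95% limit. Chance alone flags about 1 in 20 such groups. The genes varied together over the animals, so the 102 groups and their flags are not independent. Sham replicate 10 was the high animal in 3 of the 6. In this animal Alas2 was 1743807 normalised counts, with the next sham animal at 922211. Rhag was 1949.51 there, with the next at 1081, and the ubiquitin ligase subunit gene Fbxo7 was 2163.7, with the next at 1258. Sham replicate 10 also had the highest total of normalised counts in the sham group, 39.3 M, and the highest platelet marker sum, 201906. Without it the log2 change of Rhag in Live minus sham was 0.91 instead of 0.77.

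The other flags were low animals. Tal1 was 336.437 normalised counts in Die replicate 4, with the next Die animal at 579, while the mean deviation of the whole list in that animal, 1.14 log2 units, was the highest of the Die group. Without it the log2 change of Tal1 in Die minus Live was -0.53 instead of -0.64. Alad, the second enzyme of heme synthesis, was 245.271 normalised counts in Live replicate 5, with the next Live animal at 521. Nfe2 was 1322.16 in Live replicate 6, with the next at 1688. The part of depth or cell makeup in these values was not tested.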

How the results depend on the processing

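The count of members past the threshold was 0 under all alternatives tried except array weights, which gave 3 in Live minus sham (Tfrc 0.87, Rhag 0.87 and Tal1 0.78 on the log2 scale, adjusted p = 0.0215, 0.0246 and 0.0187) and 1 in irradiated minus sham (Tfrc 0.70, adjusted p = 0.0404). The cause was not tested. Calls over all genes moved more. In Live minus sham they numbered 10, against 40 with a minimum mean of 50, 115 without the 3 sparse libraries, 716 with array weights, 35 with the same total, 6 with the globin covariate and 0 with the block, and 5 to 50 with 1 library left out (50 without sham replicate 10). In irradiated minus sham they numbered 4, against 10, 62, 481 and 1 for the first 4 of these, 21 with the 7S covariate, 7 with the platelet covariate, 0 with the block, and 1 to 66 with 1 library left out (66 without sham replicate 1). In Die minus sham array weights gave 8 and single omissions 0 to 20 (20 without sham replicate 1), and in Die minus Live 1 gene passed without Die replicate 4.

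Signs of small changes turned. In Die minus sham these were Alas2 with quantile normalization (0.36), Gata1 without the 3 sparse libraries (0.11) and with array weights (0.091), and Slc4a1 without the 3 libraries (0.0015). With 1 library left out, Slc4a1 ran from -0.34 to 0.15 and Bnip3l from -0.028 to 0.34. In Live minus sham Alas2 was -0.31 with quantile normalization, -0.13 with the globin covariate and -0.16 with the same total, Bnip3l -0.022, -0.059 and -0.23, and Slc4a1 0.14 with the 7S covariate. With the same total the median of all genes was -0.28 in Live minus sham, and Alas2 and Bnip3l stood above it. The globin covariate moved the members' median to -0.06 in Live minus sham and -0.02 in Die minus Live, and the platelet covariate to 0.11 and -0.13. The globin and platelet covariates and the same total were chosen after seeing the data.

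Replicate numbers gave no sign of pairing the animals: of 10 same-numbered pairs, 0 had a correlation over 0.1 (-0.194 to 0.040). Animals with unlike numbers were not compared in this way, so the check is a weak one. With the replicate block (4 shared numbers in Die, 6 in Live), the members' median was 0.28 in Die minus sham and 0.19 in Live minus sham with 0 calls, and Ermap (-0.51), Slc4a1 (1.30) and Bpgm (0.45) changed sign in Die minus sham. Die and Live share no number. The deposited values hold no read counts, so depth limits single genes by an unknown amount.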
